A study of Mus musculus with 23 samples.

Results

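Solute carriers are membrane proteins that move amino acids, sugars, ions, nucleotides, vitamins and transmitters across the plasma membrane or the membranes of organelles. The genes described here are those whose symbol in the array's annotation follows the solute carrier pattern (Slc, a family number, the letter a and a member number), with 3 genes set aside by the selection rule. These are 139 of the 8251 genes that the array names with single-gene probe sets, and each gene is represented by its probe set with the highest mean over all arrays. They were sorted by substrate into 26 amino acid carriers, 9 glucose and sugar carriers, 4 monoamine carriers, 36 ion carriers, 20 members of the mitochondrial carrier family and 44 carriers of other substrates. The pattern also takes in 3 proteins that do not themselves carry a solute: Slc9a3r1 and Slc9a3r2, scaffold proteins that bind sodium/proton exchangers, and Slc4a1ap, an adaptor protein. All 3 were counted with the other substrates.

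Gene expression was measured on 23 arrays of nucleus accumbens from mice selectively bred, from a cross of the C57BL/6J and DBA/2J strains, for high (HMACT) or low (LMACT) acute methamphetamine response. Each array holds RNA from a pool (a 4-way pool of accumbens tissue per the labels), and tissue was taken 1 hour after an injection of saline or of 2 mg/kg methamphetamine. The groups were HMACT after saline (n = 6 arrays, pool mean ages from 77.25 to 154 days), HMACT after methamphetamine (n = 6, 77.25 to 150 days), LMACT after saline (n = 6, 61.5 to 127.5 days) and LMACT after methamphetamine (n = 5, numbered 2 to 6, 60 to 114.75 days). The mean of the pool ages was 113.9 and 115.4 days in the HMACT groups and 76.3 and 76.9 days in the LMACT groups. No label says how many breeding replicates each line has, so an effect of the selection and one particular to these lines cannot be told apart. The p-values reflect only how much the pools of a group vary.

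Most plasma membrane carriers for transmitters and amino acids couple their substrate to the sodium gradient, which the sodium pump maintains, while the mitochondrial family exchanges nucleotides and metabolites across the inner membrane. Monoamine transporters return dopamine, noradrenaline and serotonin to the nerve terminal and are the classical targets of methamphetamine, which enters terminals through them. The dopamine terminals of the accumbens belong to neurons whose cell bodies lie in the midbrain, so their messenger RNA is mostly made outside the dissected tissue.

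Carriers of every class were detected, but the monoamine class only at the edge of the scale. The values are the authors' normalized values, taken to be on a log2 scale, and run from 2.23 to 16.4 with many probe sets held at the lower end. A gene was called above the floor on an array when its value was at least 2.3. By that measure 37 of the 139 carriers (26.6%) were at the floor on every array, against 25.3% of all genes. The other carriers comprised 85 above the floor on all 23 arrays, 2 above it on 22, and 15 above it on 1 to 11. The mitochondrial family was the most completely detected, with 17 of 20 members above the floor on all 23 arrays. The corresponding counts were 15 of 26 amino acid carriers, 5 of 9 glucose carriers, 22 of 36 ion carriers, 2 of 4 monoamine carriers and 24 of 44 others. In the following, a member counts as above the floor when it was so on at least 12 arrays, which left 87 of the 139 carriers. A reading at the floor does not show that a gene was not expressed, since a probe set may fail to register its gene. Rgs9 and Cnp, markers of striatal projection neurons and oligodendrocytes, were at the floor on every array. Penk and Mobp, from the same 2 lists, averaged 14.14 and 12.03 in HMACT saline pools.

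A value above the floor was not always a varying measurement. In 14 of those 87 carriers (16.1%) one value, identical to 4 decimals, recurred on 12 or more of the 23 arrays; among all genes above the floor the share was 622 of 5308 (11.7%). These carriers were Slc7a6, Slc7a8 and Slc6a13 for amino acids, Slc2a8 for hexoses, Slc39a8, Slc30a1 and Slc39a4 for zinc, Slc25a47 in the mitochondrial family, Slc9a3r2, Slc22a12, Slc22a4 and Slc10a3 among the others, and both detected monoamine transporters. What makes values recur was not tested.

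**Figure D1:**
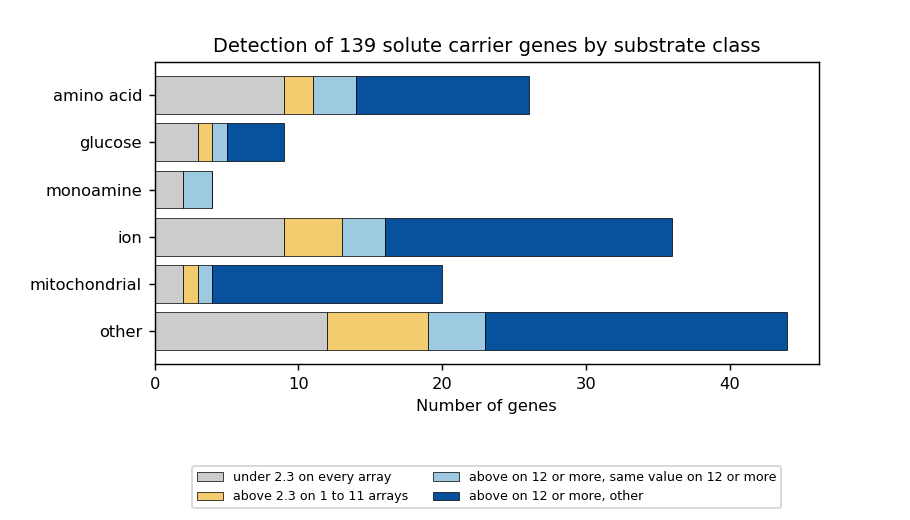
Number of solute carrier genes in each substrate class (horizontal axis, count of genes), divided by detection on 23 arrays: under 2.3 on every array, above on 1 to 11, above on 12 or more with one value recurring on 12 or more arrays, and above on 12 or more without such recurrence. Both detected monoamine transporters fall in the recurring part, while 16 of the 20 mitochondrial carriers fall in the last.

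The monoamine class thus carried little information in this tissue. Slc6a3, the dopamine transporter, was at the floor on every array, as was Slc22a2, an organic cation transporter. Slc6a4, the serotonin transporter, had a mean of 3.87 over the arrays. One value recurred on 12 of them to 4 decimals, and 16 read 3.85 to 2 decimals, with the lowest value, 3.43, in an HMACT saline pool and the highest, 4.20, in an HMACT methamphetamine pool. Slc6a2, the noradrenaline transporter, had a mean of 3.04. One value recurred on 13 arrays to 4 decimals, and 15 arrays, including every LMACT methamphetamine pool, read 3.01 to 2 decimals. The second probe sets of Slc6a4 and Slc6a2 were at the floor on every array (means 2.23 and 2.24), so detection rests on the chosen probe sets alone. Of 6 dopamine neuron markers, 5 were above the floor and En1 was at the floor on every array. Th, the rate-limiting enzyme of dopamine synthesis, averaged 4.45 in HMACT and 4.13 in LMACT saline pools. In the same order Ddc averaged 3.09 and 3.01, Pitx3 2.32 and 2.35, Nr4a2 4.91 and 5.14, and Aldh1a1 5.82 and 6.40.

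Levels from different probe sets cannot be set against each other, so levels are given here as each gene's own range over the arrays. The genes named in the larger classes are the 6 with the highest probe set means, a rule of selection that says nothing of their relative abundance. Among the amino acid carriers Slc3a2, the heavy chain that pairs with several amino acid exchangers, lay between 10.29 and 12.03. Slc1a4, a neutral amino acid exchanger, lay between 9.50 and 11.10, and the taurine transporter Slc6a6 between 8.85 and 9.78. Slc7a5, the large neutral amino acid transporter of the blood-brain barrier, lay between 7.11 and 8.90. Slc38a10 ranged from 5.83 to 8.76 and Slc6a15, a neutral amino acid transporter of neurons, from 4.11 to 7.20, so both spanned far more than Slc6a6. Amino acid carriers at the floor on every array were Slc6a18, Slc38a4, Slc6a20b, Slc1a5, Slc7a9, Slc6a12, Slc7a1, Slc7a11 and Slc7a2.

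In the glucose class the facilitative transporters of the blood-brain barrier, Slc2a1, and of neurons, Slc2a3, were above the floor on every array. Slc2a1 had a mean of 7.21 and ran from 4.97 to 8.81, the largest within-group spread of all 87 carriers (SD 1.12). Slc2a3 had a mean of 7.02 and ran from 5.61 to 7.70. The sugar transporter Slc50a1 averaged 6.47, the glucose 6-phosphate transporter Slc37a4 averaged 6.11, and the intracellular hexose transporter Slc2a8 averaged 4.03. Slc2a2, Slc2a5 and the sodium-coupled Slc5a1 were at the floor on every array, and the insulin-responsive Slc2a4 was above it on 1.

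Among the ion carriers Slc4a3, a chloride/bicarbonate exchanger, ranged from 11.41 to 12.84 and Slc30a3, which loads zinc into synaptic vesicles, from 10.37 to 12.48. Slc12a2, the sodium-potassium-chloride cotransporter that brings chloride into cells, ranged from 5.72 to 10.78, and the phosphate transporter Slc20a1 from 8.43 to 10.07. The zinc transporter Slc39a7 of the endoplasmic reticulum ranged from 7.38 to 10.24, and Slc31a1, which takes up copper, from 6.81 to 9.40. Slc12a5, the neuronal potassium-chloride cotransporter, was listed at the floor on every array, as were Slc12a1, Slc12a3, Slc34a1, Slc34a2, Slc17a1, Slc26a1, Slc4a5 and Slc4a8.

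In the mitochondrial family Slc25a4, the ADP/ATP exchanger of excitable tissue, stayed between 10.70 and 12.09 and averaged 11.50 ± 0.13 (SD, n = 6) in HMACT saline pools and 11.68 ± 0.12 (SD, n = 6) in LMACT saline pools. Slc25a25, which exchanges ATP-magnesium for phosphate, lay between 8.96 and 11.30, and Slc25a39 between 8.03 and 10.43. Slc25a14, of the uncoupling protein group, lay between 7.68 and 8.65. Slc25a11, the oxoglutarate/malate carrier, lay between 7.56 and 8.84, and the NAD carrier Slc25a51 between 6.19 and 8.58. The probe set chosen for the second ADP/ATP exchanger, Slc25a5, had a mean of 4.29. Slc25a3, the phosphate carrier, and Slc25a48 were at the floor on every array.

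Among the carriers of other substrates Slc22a17, a receptor for the iron-binding protein lipocalin 2, ranged from 11.97 to 13.89, and Slc23a2, which takes up vitamin C, from 8.65 to 9.42. The choline transporter Slc44a1 ranged from 7.15 to 8.85, the creatine transporter Slc6a8 from 7.33 to 9.10 and the scaffold Slc9a3r1 from 7.21 to 9.43. The nucleoside transporter Slc29a1, which lets adenosine cross the membrane, ranged from 6.38 to 7.27. Slc16a1, Slc16a8, Slc18a3, Slc10a2, Slc22a5, Slc22a6, Slc22a21, Slc22a30, Slc23a1, Slc27a5, Slc35a4 and Slc44a4 were at the floor on every array. The median within-group SD over the 87 carriers was 0.35.

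Before the comparisons, 4 arrays need to be named, because they stood apart from their groups: HMACT saline 3 and 5, HMACT methamphetamine 3 and LMACT methamphetamine 4. They had the 4 highest scores, from 25.7 to 58.8, on the main axis of within-group variation, where the next array scored 18.2. The sign of the axis is arbitrary, and arrays at its other end were not set apart. There HMACT saline 6 scored -35.8, HMACT saline 1 -29.0, and HMACT methamphetamine 6 and 5 -27.8 and -26.9. Each of these lay further out than HMACT saline 5 (25.7). That axis took up 62.1% of the within-group variance over 5308 genes. Many carriers moved with it: in 46 of the 87 (52.9%) all 4 arrays lay on one side of the remaining arrays of their groups, 30 above and 16 below, against 58.4% of all genes above the floor. Against the remaining arrays of their groups, Slc12a2 differed on these arrays by -2.50 on average (from -3.62 to -1.47). The mitochondrial pyrimidine nucleotide carrier Slc25a36 differed by -2.48, the CMP-sialic acid transporter Slc35a1 by -1.95 and Slc6a15 by -1.77. In the other direction the glycine transporter Slc6a9 was 1.57 higher on average, although not on all 4 arrays, Slc38a10 was 1.40 higher and the zinc transporter Slc39a3 was 1.23 higher. The cause was not tested, and results that rest on these arrays are given with and without them.

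The first comparison asks whether the accumbens of the 2 lines differed in carrier expression, averaged over both injections. No carrier passed the test: the smallest adjusted p among the 139 was 0.135 (limma, Benjamini-Hochberg adjustment over 8251 genes, two-sided). Of all genes 16 passed (0.194%). At an unadjusted p under 0.05 there were 18 carriers, which is 12.9% of the carriers beside 12.7% of all genes. Of these, 7 were higher in HMACT (4.97% of all genes were) and 11 lower (7.7% of all genes were). The share of carriers at that level was therefore near the background. Giving less weight to arrays that vary more, 12 carriers passed (8.63%), beside 10.1% of all genes. Of the 87 carriers above the floor 43 were higher and 44 lower in HMACT, with a median difference of 0.00, and 51.1% of all genes above the floor were higher.

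By class, the ion carriers leaned towards LMACT, with 16 of 23 lower in HMACT, a median difference of -0.12, and 1 higher and 5 lower at an unadjusted p under 0.05 (limma). In the glucose class 4 of the 5 carriers above the floor were higher in HMACT, with a median difference of 0.37. The amino acid carriers were split 8 higher and 7 lower (median 0.01), the mitochondrial family 9 and 8 (median 0.01) and the others 15 and 10 (median 0.02). Both detected monoamine transporters were lower, by 0.03 (Slc6a4) and 0.02 (Slc6a2), within the spread of their groups. None of these class figures was tested, since genes are not replicates.

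The mean over the 23 ion carriers, taken per array, was 6.33 ± 0.16 (SD, n = 6) in HMACT saline, 6.43 ± 0.05 (SD, n = 6) in HMACT methamphetamine, 6.46 ± 0.03 (SD, n = 6) in LMACT saline and 6.55 ± 0.03 (SD, n = 5) in LMACT methamphetamine pools. After methamphetamine the lines narrowly did not overlap in this mean, with HMACT pools between 6.34 and 6.500 and LMACT pools between 6.512 and 6.58. After saline they overlapped. The mean includes Slc12a2, which read 7.77 in HMACT methamphetamine 3, the pool at 6.500. In LMACT methamphetamine pools that gene read 10.54, 10.57, 7.84, 10.65 and 10.76. The mean was not taken without Slc12a2, so these values do not show a separation of the other ion carriers. The mean over all genes above the floor was also lower in HMACT after methamphetamine (6.44 against 6.48), with overlapping pools (6.40 to 6.48 and 6.43 to 6.53). By single genes, 6 of 23 ion carriers were higher in HMACT after methamphetamine, beside 43.2% of all genes above the floor. The line difference in the ion mean was -0.13 over all arrays and -0.12 without the 4 arrays that stood apart. The glucose mean was 6.34 ± 0.24 and 6.28 ± 0.44 in the HMACT groups (saline, then methamphetamine) and 5.91 ± 0.30 and 6.15 ± 0.57 in the LMACT groups (SD, n = 6, 6, 6 and 5), and all 4 groups overlapped. The amino acid means lay between 5.50 and 5.55, the mitochondrial means between 7.15 and 7.22 and the means of the others between 5.22 and 5.31, differences of the same order as the spread within groups or below it.

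**Figure D2:**
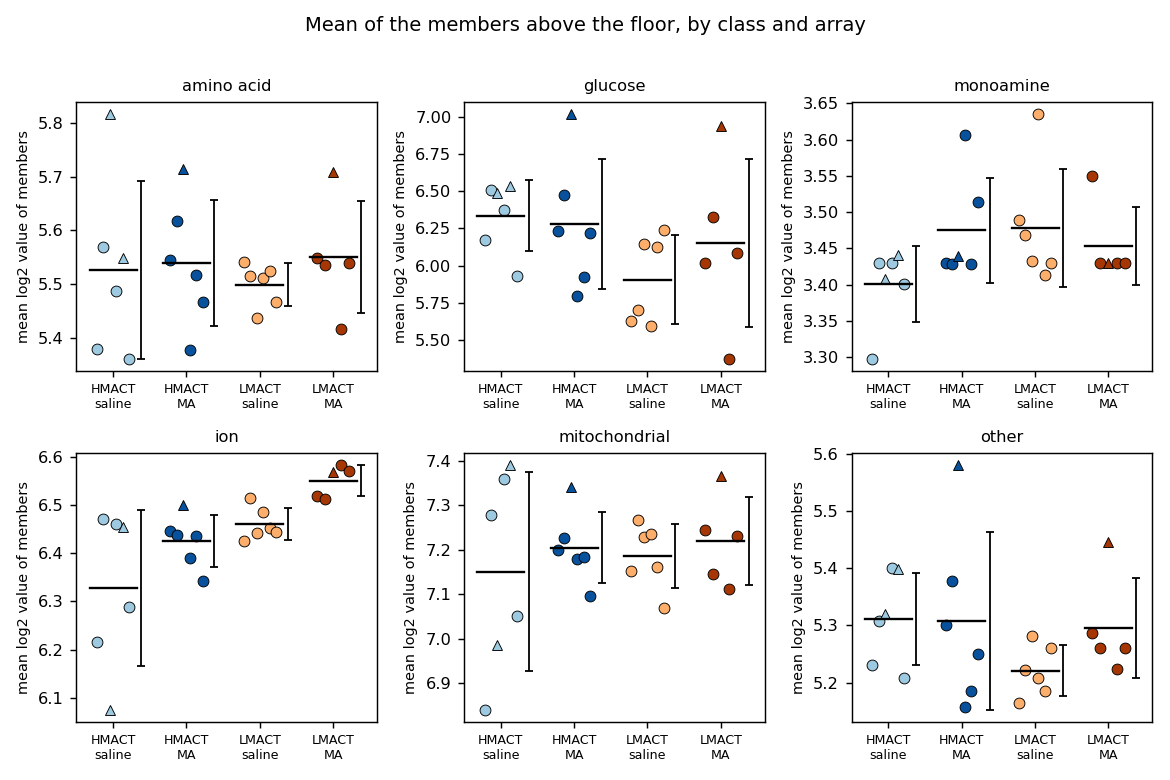
Mean log2 value of the members above the floor in each substrate class (vertical axis), one point per array, for the 4 groups (MA, methamphetamine); the line is the group mean, the bar beside it 1 SD, and triangles are the 4 arrays that stood apart. In the ion class LMACT methamphetamine pools (6.51 to 6.58) lie above all HMACT methamphetamine pools (6.34 to 6.50). The ion mean includes Slc12a2 and was not taken without it. The groups overlap in the other classes.

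The carriers with the smallest p-values for the line difference are described by role. Among carriers that were lower in HMACT, Slc12a2 differed most. In HMACT saline pools its values ran from 5.72 through a median of 9.05 to 10.09, and in HMACT methamphetamine pools from 7.77 through 9.89 to 10.34. In LMACT saline pools they ran from 10.37 through 10.50 to 10.78, and the LMACT methamphetamine pools read 10.54, 10.57, 7.84, 10.65 and 10.76. All HMACT pools were thus under all LMACT pools except LMACT methamphetamine 4, which stood apart. The mean difference was -1.30 (SE 0.451, adjusted p = 0.289, limma). Without the 4 arrays the lines did not overlap (HMACT 8.98 to 10.34, LMACT 10.37 to 10.78). The difference was then -0.98 and passed the test (adjusted p = 0.0123, limma). However, the 4 arrays were picked from these same data by their place on the main axis, and Slc12a2 was low on each of them. Leaving them out therefore narrows its groups, so the call and the lack of overlap are no separate evidence. With the mean age of the pool as a covariate the difference was -0.81, and in the 15 pools under 100 days it was -0.63, neither passing the test.

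Slc44a1, which carries choline, had a similar layout. HMACT saline pools ran from 7.35 through 8.15 to 8.46 and HMACT methamphetamine pools from 7.15 through 8.32 to 8.46. LMACT saline pools ran from 8.48 through 8.55 to 8.69, and LMACT methamphetamine pools read 8.73, 8.70, 7.61, 8.85 and 8.69. Again only LMACT methamphetamine 4 fell among or below the HMACT values. The difference was -0.46 (SE 0.177, adjusted p = 0.329, limma), and without the 4 arrays it was -0.33 with no overlap of the lines (adjusted p = 0.0291, limma). Slc44a1 too was low on each of those arrays, so the same limit applies to this call. The difference was -0.30 with age as a covariate and -0.25 in the pools under 100 days, neither passing the test. Slc12a2 and Slc44a1 were the 2 carriers without overlap when the 4 arrays were left out, or 2 of 139, where 10 of 8251 genes (0.121%) showed none. The same setting called 2 carriers and 46 of all genes (0.558%). Over all 23 arrays no carrier, and 2 of all genes (0.0242%), had lines that did not overlap.

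Slc38a2, a sodium-coupled transporter of neutral amino acids, had the smallest p of all carriers. HMACT saline pools ran from 4.05 through 4.88 to 5.25 and HMACT methamphetamine pools from 3.82 through 4.79 to 5.24. LMACT saline pools ran from 5.24 through 5.53 to 5.73, and LMACT methamphetamine pools read 5.49, 5.67, 4.94, 4.88 and 5.67. All 12 HMACT pools were under the LMACT mean of their injection, but 2 LMACT methamphetamine pools and the lowest LMACT saline pool lay within the HMACT range. The difference was -0.67 (SE 0.169, adjusted p = 0.135, limma). It was -0.56 with age as a covariate and -0.49 in the pools under 100 days.

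Slc25a17 belongs by sequence to the mitochondrial family, although its protein sits in the peroxisomal membrane. Its values ran from 7.28 to 7.93 in HMACT saline pools (median 7.71) and from 7.02 to 7.83 in HMACT methamphetamine pools (median 7.62). LMACT saline pools lay at 7.99 to 8.21 (median 8.15), above every HMACT pool, and LMACT methamphetamine pools read 8.04, 7.97, 7.70, 7.59 and 8.10. The difference was -0.41 (SE 0.106, adjusted p = 0.160, limma) and -0.30 in the pools under 100 days. Slc30a9, of the zinc transporter family, differed by -0.24 (SE 0.0946, adjusted p = 0.338, limma), with group means of 5.95, 5.96, 6.19 and 6.19; in the pools under 100 days its difference was -0.03.

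Among carriers that were higher in HMACT, Slc9a3r1 and Slc22a17 had the smallest p-values. Slc9a3r1 ran from 8.06 through 8.68 to 9.38 in HMACT saline pools and from 7.99 through 8.39 to 9.43 in HMACT methamphetamine pools. LMACT saline pools ran from 7.50 through 7.99 to 8.14, and LMACT methamphetamine pools read 7.21, 7.77, 8.69, 7.62 and 7.53. The one LMACT pool well inside the HMACT range was LMACT methamphetamine 4, and without it the difference moved from 0.75 (SE 0.205, adjusted p = 0.181, limma) to 0.86 (adjusted p = 0.0498, limma). That setting called 0.921% of all genes. In the pools under 100 days the difference was 0.40.

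Slc22a17 ran from 12.90 through 13.37 to 13.89 and from 12.94 through 13.14 to 13.68 in the HMACT saline and methamphetamine pools. LMACT saline pools ran from 12.20 through 12.77 to 13.04, and LMACT methamphetamine pools read 12.77, 12.81, 13.39, 11.97 and 12.95. All 12 HMACT pools were above the LMACT mean of their injection, and the ranges overlapped. The difference was 0.57 (SE 0.159, adjusted p = 0.183, limma), and 0.45 in the pools under 100 days.

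The neuronal glucose transporter Slc2a3 was the third of these carriers with all 12 HMACT pools above the LMACT mean of their injection. Its HMACT saline pools ran from 7.07 through 7.20 to 7.70, and its HMACT methamphetamine pools from 7.07 to 7.14. The value 7.066 recurred on 6 arrays: HMACT saline 2 and 6, HMACT methamphetamine 2, 5 and 6, and LMACT saline 2. It was the lowest value of both HMACT groups and the highest of LMACT saline, so the narrow HMACT range rests partly on it. LMACT saline pools ran from 6.68 through 6.92 to 7.07, and LMACT methamphetamine pools read 7.12, 7.03, 7.26, 5.61 and 6.67, so 1 low pool widened that group. The difference was 0.37 (SE 0.141, adjusted p = 0.329, limma), 0.36 with age as a covariate and 0.34 in the pools under 100 days. Without LMACT methamphetamine 5, the low pool, it was 0.23. Slc39a7 differed by 0.70 (SE 0.279, adjusted p = 0.330, limma), with 10 of 12 HMACT pools above the LMACT mean of their injection. It was 0.45 with age as a covariate and 0.56 in the pools under 100 days. The fatty acid transport protein Slc27a4 differed by 0.37 (SE 0.162, adjusted p = 0.362, limma), and by 0.12 in the pools under 100 days.

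The remaining carriers at an unadjusted p under 0.05 were chosen after their values were seen. Lower in HMACT were the bicarbonate cotransporter Slc4a4 (-0.43), the zinc transporters Slc30a5 (-0.27) and Slc30a4 (-0.60), Slc6a15 (-0.80), Slc22a23 (-0.31) and Slc35a1 (-0.82). Higher were the neuronal glutamate transporter Slc1a1 (0.33) and the UDP-galactose transporter Slc35a2 (0.13). Their adjusted p-values lay between 0.355 and 0.393 (limma). Slc6a15 and Slc35a1 were low on the 4 arrays that stood apart, as given above. With those arrays the HMACT pools reached down to 4.11 and 4.20, and the LMACT pools to 4.25 and 4.69. Without them Slc6a15 ran from 5.18 to 6.57 in HMACT and from 6.10 to 7.20 in LMACT. Slc35a1 then ran from 5.46 to 6.99 in HMACT and from 6.53 to 7.30 in LMACT, so both overlapped.

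**Figure D3:**
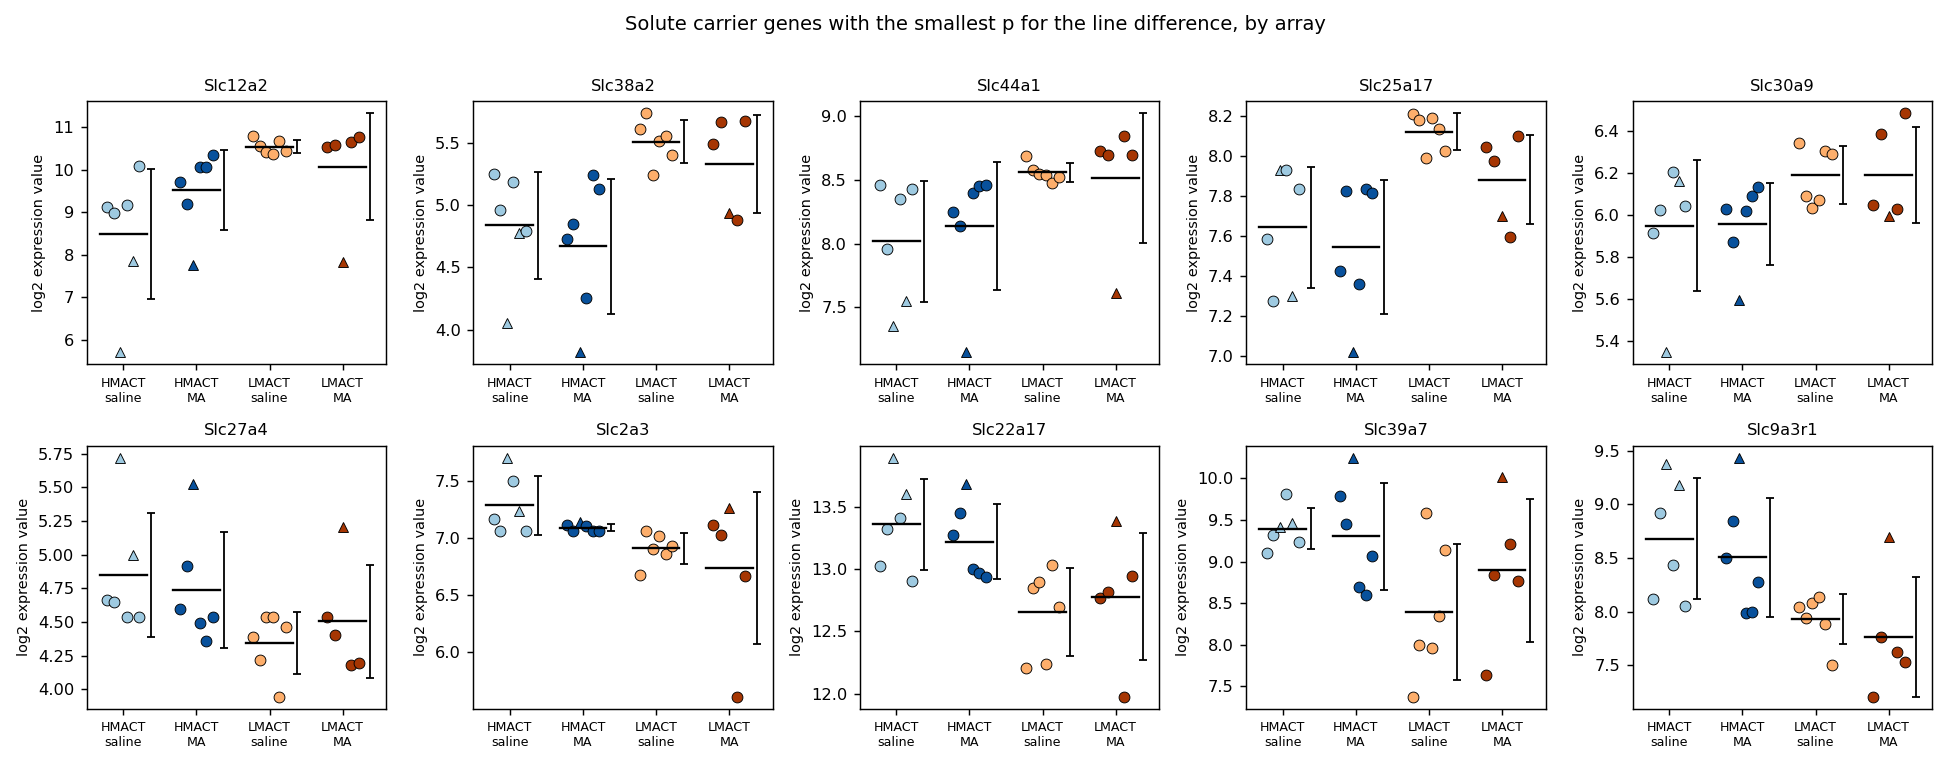
Log2 expression (vertical axis) of the 10 solute carrier genes with the smallest p for the line difference, 5 in each direction, one point per array in the 4 groups (MA, methamphetamine); the line is the group mean, the bar beside it 1 SD, and triangles are the 4 arrays that stood apart. For Slc12a2 and Slc44a1 the single low LMACT point is the triangle, at 7.84 and 7.61.

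Several measured features of the arrays differed between the lines. HMACT pools were older, as given above. Of the oligodendrocyte markers, 5 of 6 were on the array, and Cnp was at the floor on every array. Averaged over both injections, the other 4 were all lower in HMACT (median -0.26), with Mobp at -0.80 (SE 0.193). After saline alone Mbp (11.30 against 11.29), Mog (5.09 against 5.06) and Mag (6.38 against 6.02) averaged higher in HMACT than in LMACT. Their summed level ran from 12.42 to 13.07 and from 12.04 to 13.11 in the HMACT groups (saline, then methamphetamine), and from 12.83 to 13.44 and from 13.13 to 13.55 in the LMACT groups. In bulk tissue fewer cells of a type and less RNA per cell cannot be told apart. The 3′ minus 5′ difference of the Gapdh control probe sets, a measure of RNA length, averaged 2.19 and 2.46 in the HMACT groups and 2.75 and 2.99 in the LMACT groups, and that of actin 2.02 and 2.24 against 2.51 and 2.74. LMACT methamphetamine 5 had the highest difference of its group in both controls (4.44 and 4.70). Without that pool the LMACT methamphetamine means were 2.62 for Gapdh and 2.26 for actin, so that of actin was close to the HMACT methamphetamine mean. The part of these features in the line differences was not tested, apart from the age settings given for the genes named above.

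Averaged over both injections, the other marker lists had no common direction between lines or were nearly absent. Of the markers above the floor, 2 of 4 striatal projection neuron genes were higher in HMACT, with Rgs9 at the floor. The same held for 3 of 5 dopamine neuron genes, 2 of 6 astrocyte genes, 3 of 5 microglial genes, 3 of 5 endothelial genes and 1 of 2 cortical neuron genes. Of 3 choroid plexus genes on the array Ttr was at the floor on every array, Kl was above it on 5, and Folr1, above it on all 23, differed between the lines by -0.05 (SE 0.0468). The summed level of these 3 genes ran from 4.51 to 4.55 and from 4.51 to 5.34 in the HMACT groups (saline, then methamphetamine), and from 4.51 to 4.85 and from 4.48 to 4.54 in the LMACT groups. Of 2 red blood cell genes 1 was above the floor on at least 12 arrays and was higher in HMACT. No marker passed the test in any of the 7 comparisons.

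**Figure D4:**
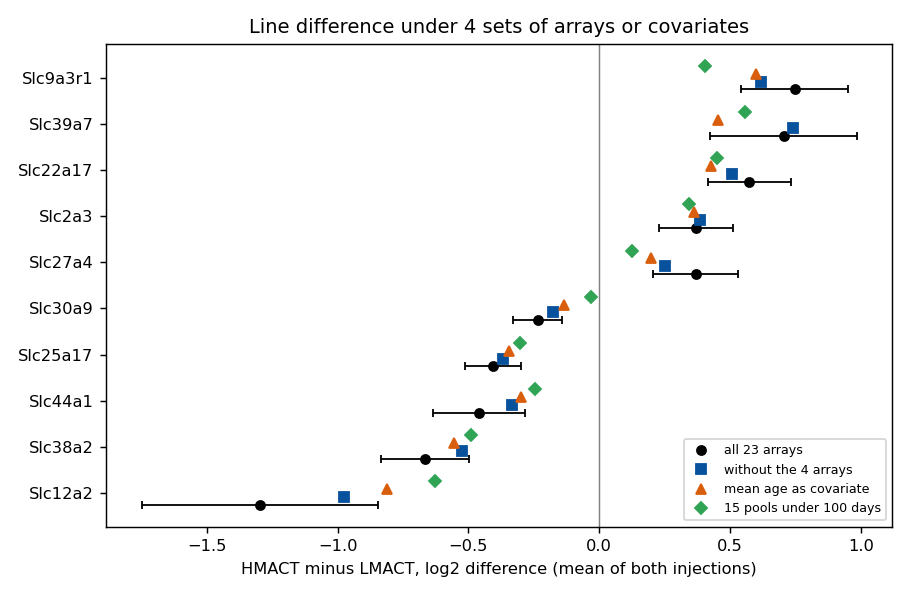
HMACT minus LMACT difference (log2, horizontal axis) of the same 10 genes in all 23 arrays (circle with 1 SE), without the 4 arrays that stood apart (square), with pool mean age as covariate (triangle) and in the 15 pools under 100 days (diamond). For 8 of the 10 genes the difference in the younger pools lies nearer 0 than any other setting shown, reaching -0.03 for Slc30a9.

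Within single injections no carrier passed either. After saline 15 carriers were at an unadjusted p under 0.05 (10.8% beside 15.2% of all genes), 4 higher in HMACT (6.76% of all genes) and 11 lower (8.46% of all genes). The smallest adjusted p was 0.320 (limma), and with array weights 3 did, beside 2.86% of all genes. Slc12a2 differed by -2.05 (SE 0.623) and Slc25a17 by -0.48, Slc22a17 by 0.71 and Slc9a3r1 by 0.75. Without the 4 arrays the difference was -1.20 for Slc12a2 and 0.45 for Slc9a3r1. After methamphetamine 6 carriers were at that level (4.32% beside 4.29%), 1 higher (1.45% of all genes) and 5 lower (2.84% of all genes). The smallest adjusted p was 0.857 (limma), and with array weights 2 passed, beside 1.65% of all genes. Slc38a2 differed by -0.66, the metal transporter Slc11a2 by -0.53 and Slc9a3r1 by 0.74. Slc22a12, a urate transporter, differed by 0.04 with a value that recurred over the arrays, and by 0.02 without LMACT methamphetamine 3. In the pools under 100 days the differences were -0.37 for Slc38a2, -0.86 for Slc11a2 and 0.26 for Slc9a3r1. The pools behind these within-injection values are those of the mean comparison, so they are no separate evidence.

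The second comparison asks whether methamphetamine changed carrier expression 1 hour after injection. No carrier passed the test in the mean over both lines (smallest adjusted p = 1, limma), where 2 of all genes did (0.0242%). At an unadjusted p under 0.05 there was 1 carrier, or 0.719%, beside 1.5% of all genes. Of the 87 carriers above the floor 58 were higher and 29 lower after methamphetamine (66.7% higher, median 0.03), against 48.0% of all genes above the floor (median 0.00). That lean did not hold without the 4 arrays, where 44 were higher and 43 lower, nor in the pools under 100 days, where 40 were higher and 47 lower. By class 13 of 17 mitochondrial carriers, 15 of 23 ion carriers, 9 of 15 amino acid carriers, 4 of 5 glucose carriers and 16 of 25 others were higher. Without the 4 arrays 7 of 17 mitochondrial and 2 of 5 glucose carriers were higher, while the ion carriers kept the count of 15.

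Slc11a2, which moves iron and other divalent metals with protons, was the carrier at an unadjusted p under 0.05. HMACT saline pools ran from 6.80 through 7.95 to 8.11 and HMACT methamphetamine pools from 7.55 through 7.73 to 8.80, so in HMACT the median was lower after the drug. LMACT saline pools ran from 7.57 through 7.80 to 8.28, and LMACT methamphetamine pools read 8.25, 8.22, 8.99, 8.41 and 8.48, overlapping only at the highest saline pool. The mean difference was 0.40 (SE 0.167, unadjusted p = 0.0259, adjusted p = 1, limma), with 8 of 11 methamphetamine pools above the saline mean of their line. It was 0.19 in the pools under 100 days and 0.17 with array weights. A second probe set for the gene, also above the floor, gave 0.12 (SE 0.137). In LMACT alone the difference was 0.62 (SE 0.242, adjusted p = 1, limma).

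Slc9a8, a sodium/proton exchanger of the Golgi, read 4.02, 4.20, 5.97, 6.01 and 4.24 in LMACT methamphetamine pools. LMACT saline pools lay at 3.58 to 4.13 (median 3.79), so 2 pools carried most of the difference. These were LMACT methamphetamine 4, which stood apart, and LMACT methamphetamine 5, the pool with the highest 3′ minus 5′ differences (4.44 for Gapdh and 4.70 for actin). HMACT pools ran from 3.88 to 4.62 after saline and from 3.41 to 6.01 after methamphetamine, where the highest was HMACT methamphetamine 3, which also stood apart. The difference was 0.55 (SE 0.289, adjusted p = 1, limma) over both lines and 1.07 (SE 0.419, adjusted p = 1, limma) in LMACT. Over both lines it was 0.32 without the 4 arrays and 0.08 with array weights, and in LMACT 0.52 with array weights.

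The other carriers with the smallest p-values moved by little. Slc29a1 was 0.14 higher (SE 0.0746) and Slc50a1 0.16 higher (SE 0.0886), and without the 4 arrays both differences were 0.08. With array weights they were 0.04 and 0.02, and without HMACT methamphetamine 3 that of Slc29a1 was 0.09. Slc6a4 was 0.09 higher (SE 0.0524) over both lines and 0.16 higher (SE 0.0723) in HMACT. Without HMACT saline 1, the lowest pool, these differences were 0.06 and 0.10. The second probe set of Slc6a4 was at the floor on every array. Lower after methamphetamine, none at an unadjusted p under 0.05, were Slc25a17 (-0.17, SE 0.106), Slc2a3 (-0.19, SE 0.141), Slc6a2 (-0.04), the carnitine-family transporter Slc22a4 (-0.02) and Slc25a47 (-0.01). The last 3 had recurring values. Without LMACT methamphetamine 5 the Slc2a3 difference was -0.04, and without the 4 arrays that of Slc25a17 was -0.10. Without LMACT saline 4 the differences of Slc6a2 and Slc22a4 were both -0.01.

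Within HMACT 1 carrier (Slc6a4) was at an unadjusted p under 0.05 beside 1.55% of all genes, and within LMACT 3 were (2.16% beside 3.33%): Slc9a8, Slc11a2 and Slc7a7, the last an amino acid exchanger above the floor on 2 arrays. No carrier passed the test in either line (smallest adjusted p = 1 in each, limma), where 1 of all genes passed in HMACT (0.0121%) and none in LMACT. In HMACT the cystine and dibasic amino acid subunit Slc3a1 was 0.06 higher (0.04 without HMACT methamphetamine 4), and the GABA transporter Slc6a13 differed by -0.01, with a recurring value.

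**Figure D5:**
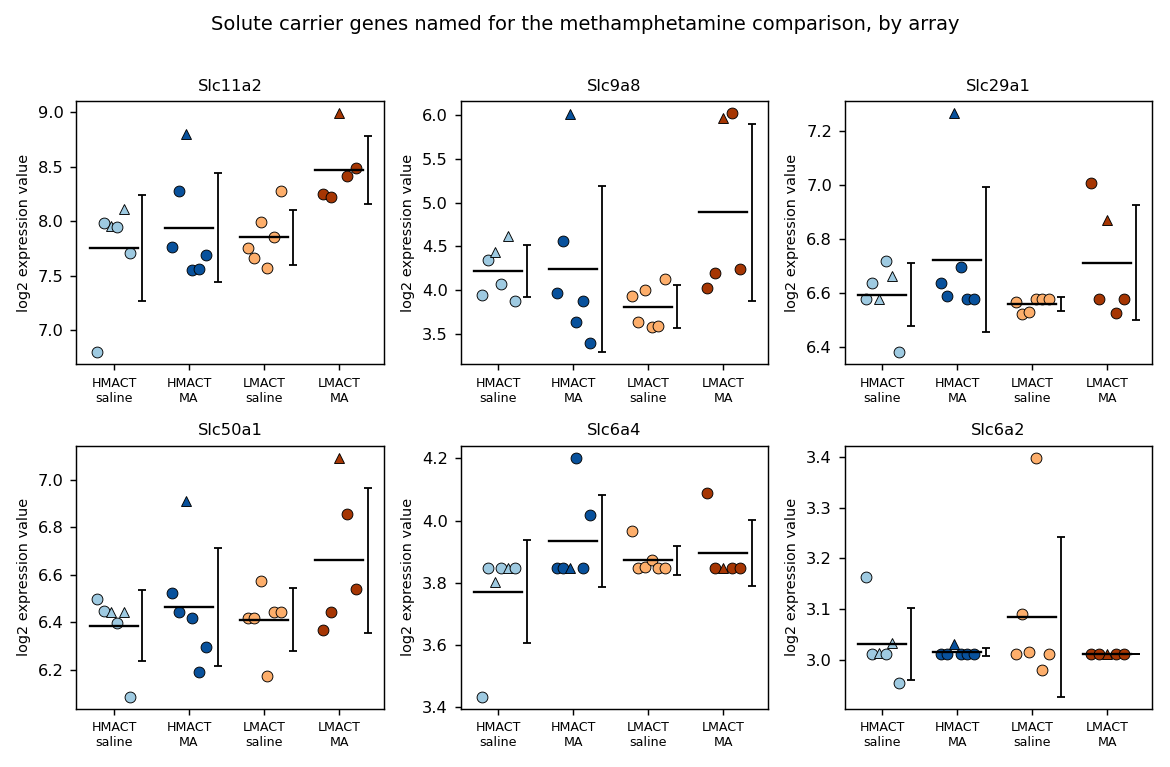
Log2 expression (vertical axis) of 6 solute carrier genes named for the methamphetamine comparison, one point per array in the 4 groups (MA, methamphetamine); the line is the group mean, the bar beside it 1 SD, and triangles are the 4 arrays that stood apart. The LMACT methamphetamine pools of Slc11a2 lie at 8.22 to 8.99, and most points of Slc6a4 and Slc6a2 sit on one value.

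The third comparison asks whether the response to methamphetamine differed between lines. No carrier had an unadjusted p under 0.05 for the interaction, where 2.62% of all genes did, and the smallest adjusted p was 0.860 (limma). The carriers with the smallest p-values were Slc20a1 (0.58, SE 0.289) and Slc12a2 (1.50, SE 0.902) with a higher drug difference in HMACT, and Slc9a8 (-1.05, SE 0.578) and Slc25a11 (-0.49, SE 0.290) with a lower one. Slc20a1 averaged 9.38 ± 0.51 and 9.70 ± 0.20 (SD, n = 6 each) in HMACT saline and methamphetamine pools, and 9.81 ± 0.22 (SD, n = 6) and 9.55 ± 0.39 (SD, n = 5) in LMACT. Without the 4 arrays the Slc12a2 interaction was 0.44 and that of Slc25a11 -0.27. The Slc12a2 value was 0.95 without HMACT saline 3 and 0.94 without LMACT methamphetamine 4. That of Slc9a8 was -1.85 in the pools under 100 days and -0.97 without the 4 arrays, and that of Slc20a1 was 0.29 with array weights.

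Some genes were measured above the floor by more than one probe set, and the sign of the line difference then differed for Slc25a5 (-0.02 against 0.18) and Slc25a51 (-0.24 against 0.14). For Slc11a2, Slc25a1, Slc30a5, Slc31a1, Slc6a6, Slc6a8 and Slc8a1 the probe sets above the floor agreed in sign, with -0.27 and -0.23 for Slc30a5. Probe sets of the near-identical ADP/ATP exchangers Slc25a4 and Slc25a5 may share sequence, and the values cannot show how signal was divided between them.

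The pumps that set the gradients these carriers use were in the same position. Of 12 listed sodium pump genes 7 were on the array and 6 above the floor; 3 were higher and 3 lower in HMACT, none passing the test. Fxyd1, a small regulatory subunit of the pump, had the smallest p (0.85 higher in HMACT, SE 0.290, adjusted p = 0.280, limma). All 13 V-type proton pump genes on the array, which acidify vesicles and so drive transmitter loading, were above the floor; 7 were higher and 6 lower in HMACT, and 5 higher and 8 lower after methamphetamine, again with none passing the test.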

How the data were processed

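RNA from pooled nucleus accumbens was hybridised as biotin-labelled cRNA to 23 arrays. The deposited log2 values were normalized by the authors with a method not given in the sources used here. The submitters' processing notes name R 2.7.1. The log2 scale was inferred from the range of the values. Of 12488 probe sets, 66 were controls, 10833 name 1 gene, 396 several and 1193 are not listed in the platform annotation; only those naming 1 gene were used, 10817 of them matched to RefSeq. One probe set per gene was kept, that with the highest mean. Of all values 44.2% were under 2.3. The number of arrays limits the precision.

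Group means were fitted over all 23 arrays with limma 3.58.1 (R 4.3.3; lmFit, contrasts.fit, eBayes), with two-sided tests and Benjamini-Hochberg adjustment over 8251 genes for each of 7 comparisons; an adjusted p under 0.05 was a call. The script was tested on simulated data. Named genes were the 5 carriers with the smallest p in each direction for the 2 mean comparisons, 2 for the others (none at the floor on over 11 arrays), the 6 highest means in the larger classes, all glucose and monoamine carriers, and carriers whose probe sets differ in sign. Members, classes and lists were chosen with earlier results of these data known. Saline and methamphetamine pools share replicate numbers in the labels, and same-numbered HMACT pools share the chip lot and are close in mean age. Residuals of same-numbered pools of a line correlated between -0.618 and 0.876. That cannot decide whether they are pairs, because the main axis of within-group variation dominates the residuals. The main fit did not use the numbers, and fits with a replicate block are given below. Alternatives changed the normalization, the filter, the probe set rule, the variance model, array weights, chip lot, age, the replicate block and the arrays included. The rule for recurring values was added after the data were seen.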

Additional observations from a re-analysis of the deposited data

Results flagged for a closer look

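In each group of 4 to 10 pools the highest and the lowest value of every carrier named for a difference were checked for a gap that is large against the group's range (Dixon's 95% limit). Of 92 such groups 27 held a pool that stood out, and 10 of the 27 fell on the 4 arrays that stood apart. The limit is set so that chance gives about 1 in 20 in groups without tied values. Many of these groups hold a recurring value, so the count cannot be set against that rate.

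On those 4 arrays, LMACT methamphetamine 4 was low for Slc12a2 (7.84, the other pools of its group at 10.54 to 10.76) and for Slc44a1 (7.61 against 8.69 to 8.85), the 2 carriers whose lines do not overlap without these arrays. HMACT methamphetamine 3 was low for Slc44a1 (7.15), high for the oxoglutarate/malate carrier Slc25a11 (8.73 against 7.80 to 8.09) and for the nucleoside transporter Slc29a1 (7.27 against 6.58 to 6.70), and slightly high for Slc6a2 (3.03) and Slc25a47 (2.447). HMACT saline 3 was low for the phosphate transporter Slc20a1 (8.43) and for Slc30a9 (5.35), and HMACT saline 5 was high for Slc25a47 (2.52).

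On the other arrays, HMACT saline 1 was low for the metal transporter Slc11a2 (6.80 against 7.71 to 8.11) and for the serotonin transporter Slc6a4 (3.43 against 3.80 to 3.85). HMACT saline 6 was low for the sugar transporter Slc50a1 (6.09). LMACT methamphetamine 5 was low for Slc20a1 (8.87), high for Slc3a1 (2.76) and low for Slc22a4 (2.36). Slc6a4 was high in LMACT saline 1 (3.97) and LMACT methamphetamine 2 (4.09), and Slc6a2 in LMACT saline 4 (3.40).

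The rest belonged to carriers whose value recurs over the arrays, so that a small departure from it stood out. They were Slc6a2 in LMACT methamphetamine 6 (3.01), Slc22a12 in LMACT methamphetamine 3 (4.14), and Slc22a4 in HMACT methamphetamine 2 (2.41) and LMACT saline 4 (2.52). Further ones were Slc25a47 in LMACT methamphetamine 3 (2.43), and Slc6a13 in HMACT saline 4 (2.84), LMACT saline 6 (2.77) and LMACT methamphetamine 3 (2.76). The pools named above for Slc6a4, Slc6a2, Slc22a4 and Slc25a47 also belong to carriers with a recurring value.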

How the results depend on the processing

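The main count of carriers called was 0 in each of the 7 comparisons. For the line difference over both injections it was 12 with array weights, 2 without the 4 arrays that stood apart and, leaving out 1 array at a time, 0 to 1, the 1 being Slc9a3r1 without LMACT methamphetamine 4. With array weights it was 3 after saline and 2 after methamphetamine. The other 258 counts of calls were unchanged. With the replicate block as a fixed term or as a random block 0 carriers were called in each comparison, and the Slc12a2 line difference was -1.33 with the fixed term. Of the differences of named genes 1472 kept direction and side of the threshold, 14 became calls and 6 changed sign: Slc25a17 after methamphetamine (0.00055 with array weights), Slc6a13 in HMACT (0.011 with quantile normalization, 0.0052 with median centring) and Slc25a47 in HMACT (0.0087 with median centring, 0.00048 in the largest chip lot, and -0.014 to 0.00032 leaving out 1 array at a time); the cause was not tested. Carriers at an unadjusted p under 0.05 for the line difference numbered 4 to 32 over the settings, and those higher after methamphetamine 40 to 64 of 87. The 16 calls among all genes became 830 with array weights, 46 without the 4 arrays, and 1 with age as covariate or in the pools under 100 days.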
